A study of Homo sapiens with 5 samples.

Results

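The Schlafen genes SLFN5, SLFN11, SLFN12 and SLFN13 are a cluster of related human genes on chromosome 17, and their transcript levels are described here in 5 RNA-seq libraries from liver cancer cells. The members were the 4 rows with these symbols among 24544 gene symbols in each library. They were chosen by symbol, and SLFN11 was selected on its low FPKM after SALL4 knockdown in these libraries, so that value is a description with no test. The libraries came from 2 established hepatocellular carcinoma lines. One line, SNU-387, was given an empty vector, the isoform SALL4A or the isoform SALL4B. The other, SNU-398, was sampled untreated and with a knockdown directed at both SALL4 isoforms. SALL4 is a zinc finger transcription factor of embryonic tissue. The treatment label of all 5 samples lists lentiviral transduction with puromycin selection, also for the SNU-398 sample whose source label says untreated. Promoters and vectors, and whether lines were clonal, are not described in the labels. The cell line label reads SNU-387 throughout, and the titles were followed. Each group held 1 library, so no difference below has a replicate check and no p-value was computed.

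Schlafen proteins share an N-terminal domain that can cut tRNA and other RNA, and the longer members also carry a helicase-like part. Many of the genes respond to interferon. SLFN11 is recruited to stalled replication forks, where it blocks further replication, and tumour cells with high SLFN11 are known for their sensitivity to topoisomerase inhibitors, PARP inhibitors and platinum drugs. SLFN5 is a nuclear member that is linked to repression of interferon responses and of viral transcription. SLFN12 is an RNase that binds the phosphodiesterase PDE3A when certain small molecules bridge them. SLFN13 is a tRNA and rRNA endonuclease.

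SLFN11, SLFN12 and SLFN13 lie next to each other on the minus strand, and SLFN5 lies on the plus strand beside them (GRCh38, GENCODE 29). SLFN5 spans 35243036 to 35273655, SLFN11 spans 35350305 to 35373701, SLFN12 spans 35411060 to 35433283 and SLFN13 spans 35435096 to 35448837. All 4 are protein-coding. Their longest transcripts have 5, 7, 6 and 6 exons and lengths of 10591, 5030, 2539 and 8469 bases in the same order. Of the 50-base words in the longest SLFN11 transcript, 12.4% also occur in SLFN13, while 1.97% of those of SLFN12 occur in SLFN12L. The longest SLFN5 transcript shared none with another Schlafen gene. The labels do not say how reads common to SLFN11 and SLFN13 were assigned.

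Of the 4 members, 2 have a promoter entry in the RefSeq table (GRCh38.p14), and the 250 bases before their start sites are shown because SLFN11 is the member with the widest range of levels and SLFN12 lies next to it on the same strand. The SLFN11 window is chr17:35373622-35373871 and the SLFN12 window is chr17:35433175-35433424, both read along the minus strand. Capitals mark GGAA or its reverse complement, the core word of ETS transcription factor sites.
SLFN11: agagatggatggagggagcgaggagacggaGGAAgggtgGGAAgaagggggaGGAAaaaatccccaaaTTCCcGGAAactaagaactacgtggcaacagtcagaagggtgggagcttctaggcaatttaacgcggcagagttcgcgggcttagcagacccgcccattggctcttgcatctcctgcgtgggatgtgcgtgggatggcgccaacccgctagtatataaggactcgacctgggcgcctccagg
SLFN12: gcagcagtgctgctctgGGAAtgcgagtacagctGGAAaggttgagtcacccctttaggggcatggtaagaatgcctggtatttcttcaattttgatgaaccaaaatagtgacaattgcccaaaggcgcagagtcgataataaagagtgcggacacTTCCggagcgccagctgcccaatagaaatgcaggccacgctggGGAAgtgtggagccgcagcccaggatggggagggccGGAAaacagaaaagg

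Each window held 5 matches of GGAA on either strand. Of 35116 promoter windows of the same length, 92.7% held at least 1 match and 18.6% held 5 or more. In SLFN11 all 5 lay between bases -220 and -177, counted from the start site, while in SLFN12 they ranged from -233 to -15. Neither window held GAAA, any 2 bases and GAAA again, the core of an interferon response element (3.02% of windows), or AATATT, an AT-rich word of the kind SALL4 binds (6.41% of windows). These are matches of letters in a short window, and no binding was measured here.

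The libraries differed in depth and in RNA make-up. Levels are FPKM, fragments scaled to transcript length and to library depth. The estimated depth, in M (mega) fragments, was lowest in the knockdown library at 7.75 M and highest in the SALL4A library at 25.3 M. SALL4 was at 0.117, 23.1 and 10.4 FPKM in the empty vector, SALL4A and SALL4B libraries, and at 39.4 FPKM in untreated against 7.45 FPKM in knockdown SNU-398 cells. Small nucleolar RNAs held 37.1% of summed FPKM in the knockdown library and 1.04% to 13.2% in the others. Of 10 hepatocyte markers, 0 to 2 reached 1 FPKM in any library. The highest were SERPINA1 and APOA1, at 25.3 and 14.9 FPKM with SALL4B, while albumin (ALB) reached at most 1.28 FPKM. Of the fetal liver markers GPC3 was at 10.2 and 8.41 FPKM in untreated and knockdown SNU-398 cells, and AFP ranged from 0.0230 to 1.23 FPKM over the libraries. Of 9 leukocyte markers, which mark the blood cells where Schlafen genes are also expressed, 3 or 4 reached 1 FPKM in the SNU-387 libraries and 1 in the SNU-398 libraries. Their summed level was 12.01 to 20.4 FPKM in SNU-387 and 3.01 to 4.45 FPKM in SNU-398. The highest leukocyte values were those of ITGB2 (16.6 FPKM with SALL4B), LCP1 (8.54 FPKM with SALL4A), CORO1A (4.09 FPKM in untreated SNU-398 cells) and CD14 (3.39 FPKM with empty vector), while the T cell gene CD3E reached at most 0.0946 FPKM. The part of these genes in the Schlafen levels was not tested.

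The lines differed in which Schlafen gene was the main one. In SNU-387 cells SLFN5 was the main member, with 94.2%, 90.6% and 93.6% of the summed FPKM of the 4 members in empty vector, SALL4A and SALL4B cells. In untreated SNU-398 cells SLFN11 held 98.1% of that sum. The 4 members summed to 16.5 FPKM in empty vector and 18.7 FPKM in untreated cells. After knockdown the sum was 2.04 FPKM, of which SLFN11 held 57.6% and SLFN5 33.9%. The labels do not say whether the libraries were normalised together, so the lines are set side by side without a fold change. SLFN5 had the rank 5816 of 12018 genes at 1 FPKM or more in empty vector cells, and SLFN11 had the rank 5021 of 12623 in untreated SNU-398 cells, so each was a gene of middle rank in the line where it was highest.

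**Figure D1:**
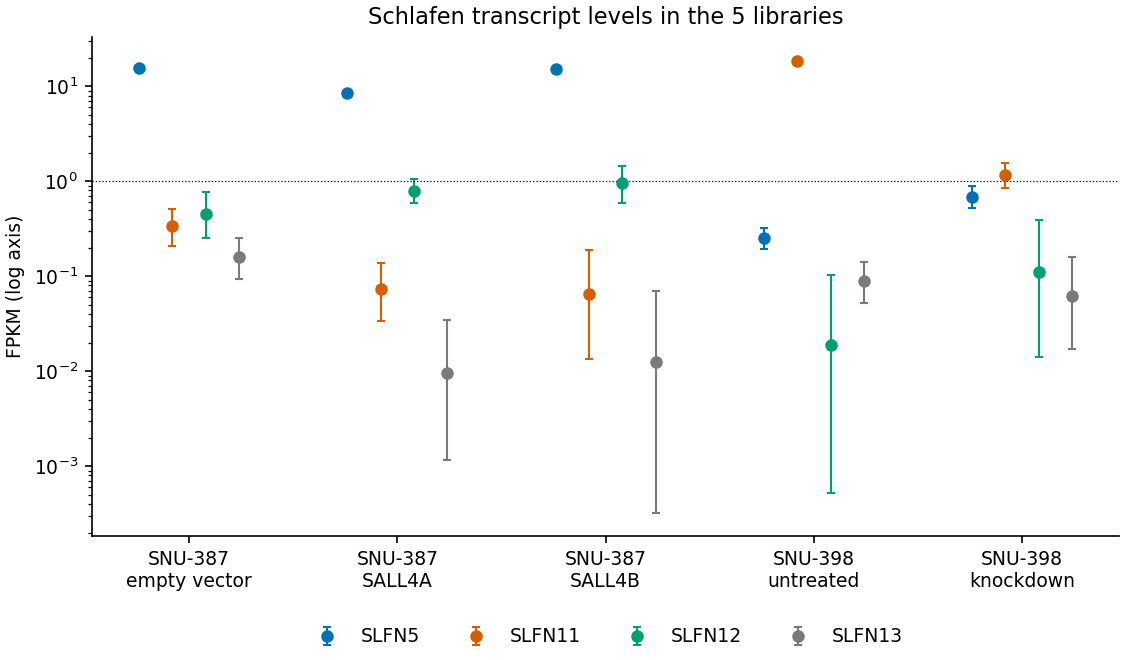
FPKM of the 4 members (log axis) in the 5 libraries, with 1 point per library and bars for the 95% Poisson interval of its estimated fragments (counting error only); the dotted line is 1 FPKM. SLFN5 lies at 8.51 to 15.5 FPKM in SNU-387 and under 1 FPKM in SNU-398, SLFN11 is at 18.4 FPKM only in untreated SNU-398, and SLFN12 and SLFN13 stay under 1 FPKM in every library.

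SLFN11, the member that halts replication at damaged forks, was at 18.4 FPKM in untreated SNU-398 cells and at 1.17 FPKM after knockdown. In SNU-387 it was at 0.337 FPKM in empty vector cells, at 0.0735 FPKM with SALL4A and at 0.0649 FPKM with SALL4B. Untreated SNU-398 was thus the one library with a clear SLFN11 signal, and knockdown cells had the next level. These values correspond to about 2072 estimated fragments in untreated, 44.4 in knockdown, 21.2 in empty vector, 9.06 in SALL4A and 3.02 in SALL4B cells.

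After SALL4 knockdown, SLFN11 stood at 6.39% of the untreated level (95% interval 4.58% to 8.53%, from an exact binomial interval on estimated fragments, which covers counting error only). The log2 ratio of (FPKM + 1) was -3.16, the rank 11 from the lowest among the 13716 genes that reached 1 FPKM in one library of the pair. Of these, 8.13% were at least 2-fold lower (a log2 ratio of -1 or less) after knockdown. SLFN11 was the 1 member counted, and because this contrast was used to pick it, nothing is read from that count. The interval leaves out variation between cultures, and the comparison also sets the shallowest library, rich in small nucleolar RNA, against a deeper one. With values scaled to a common upper quartile the share was 6.72%, with a common sum it was 4.02%, and with a common sum without small RNAs it was 6.50%.

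In SNU-387 cells SLFN11 was near the lower end of detection and lower in both SALL4 libraries than with empty vector. It stood at 21.8% of the empty vector level with SALL4A (interval 8.79% to 49.7%) and at 19.2% with SALL4B (interval 3.67% to 64.4%). Both shares use the same empty vector library. Among 5745 genes with a mean of 0.05 to 1 FPKM in the SALL4A pair, the median share was 56.6% and 29.6% of genes were as low as SLFN11. For SALL4B the median over 5585 such genes was 56.9%, and 33.7% were as low. A low SLFN11 share was therefore common for genes at this level in both pairs. This range of levels was chosen after the values were seen. With SALL4A against SALL4B, at about 9.06 and 3.02 fragments, SLFN11 stood at 113% (interval 28.3% to 652%), a difference not detectable at this depth.

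SLFN5, the interferon-linked nuclear member, was at 15.5 FPKM in empty vector cells. It was at 8.51 FPKM with SALL4A and at 15.1 FPKM with SALL4B. The SALL4A library was the low one, and the other SNU-387 libraries were close to each other. SLFN5 stood at 54.8% of empty vector with SALL4A (interval 51.6% to 58.2%), a log2 ratio of -0.80. Of 12441 genes in this pair 5.39% had a lower ratio, 3.24% were at least 2-fold lower and 2.27% higher, and no member was in either class. With SALL4B it stood at 97.6% of empty vector (interval 91.3% to 104%), a log2 ratio of -0.03, so no difference beyond counting error was seen. Of 12459 genes in that pair, 4.86% were at least 2-fold lower and 3.13% higher (7.99% either way), and no member was.

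The isoforms were also compared directly. SLFN5 stood at 56.2% of the SALL4B level with SALL4A (interval 52.6% to 60.0%), a log2 ratio of -0.76, and 7.15% of 12424 genes had a lower one. In this pair 3.39% of genes were at least 2-fold lower with SALL4A and 3.82% higher (7.2% either way), and no member was. With a common sum without small RNAs the log2 ratio was -0.59.

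In SNU-398 cells SLFN5 was at 0.252 FPKM when untreated and at 0.691 FPKM after knockdown, both under 1 FPKM and far below its SNU-387 levels. The knockdown value was 275% of the untreated one (interval 187% to 400%), at about 60.7 and 55.9 estimated fragments. The median over 5720 genes with a mean of 0.05 to 1 FPKM was 298% in the same pair, and 55.9% of them were as high as SLFN5. The SLFN5 share was thus near the middle of genes at that level in these libraries.

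SLFN12, the RNase that pairs with PDE3A, was at 0.457 FPKM in empty vector cells, and at 0.796 FPKM with SALL4A and 0.952 FPKM with SALL4B. In SNU-398 it was at 0.0187 FPKM when untreated and 0.112 FPKM after knockdown, about 1.03 and 2.07 fragments. All 3 SNU-387 libraries lay above both SNU-398 libraries. Against empty vector it stood at 174% with SALL4A (interval 94.6% to 343%) and at 208% with SALL4B (interval 103% to 447%). In the low range, 17.1% of genes with SALL4A and 14.4% with SALL4B were as high. After knockdown the interval, from 31.0% of the untreated level upward, held no information on direction.

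SLFN13, the tRNA and rRNA endonuclease, was the lowest member in each SNU-387 library. Its level was 0.159 FPKM in empty vector cells, and 0.00953 FPKM with SALL4A and 0.0126 FPKM with SALL4B. In SNU-398 it was at 0.0890 FPKM when untreated and 0.0623 FPKM after knockdown. The estimated fragments were 17.04, 2.002, 1.002, 17.1 and 4.02 in that order, so the shares rest on few fragments. SLFN13 stood at 5.98% of empty vector with SALL4A (interval 0.671% to 25.2%) and at 7.91% with SALL4B (interval 0.189% to 50.5%). Of genes in the low range, 20.5% and 29.6% were as low. After knockdown it stood at 70.0% of untreated (interval 17.2% to 215%), a difference not detectable at this depth.

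A filter of 1 FPKM in either library of a pair left 1 of the 4 members in every pair. That member was SLFN11 for knockdown over untreated and SLFN5 for the 3 SNU-387 pairs. The other members of each pair are described by their levels.

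**Figure D2:**
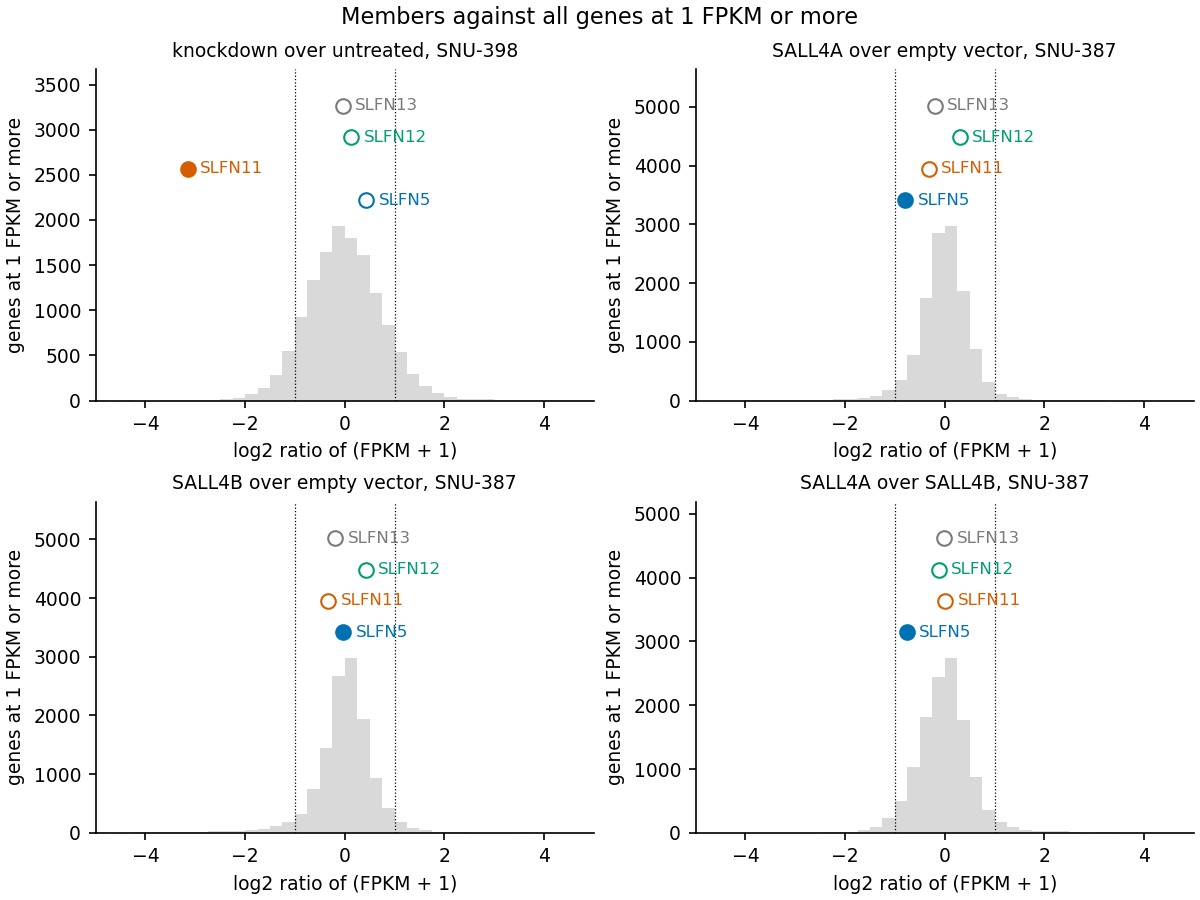
Log2 ratio of (FPKM + 1) of the members (coloured circles) in 4 pairs of libraries, over a histogram of all genes that reached 1 FPKM in one library of the pair; filled circles mark members that passed this filter, their height is arbitrary, and dotted lines mark 2-fold. SLFN11 at -3.16 after knockdown is the only member beyond 2-fold, and SLFN5 lies at -0.80 with SALL4A and -0.03 with SALL4B.

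The neighbours of the cluster were examined because a difference over the whole chromosome segment would touch them as well. Of 22 rows reported here for genes within 500 kb of the cluster, 9 passed the 1 FPKM filter in the knockdown pair, with log2 ratios from -1.28 to 0.47 and a median of -0.69. Among these 9, 2 were at least 2-fold lower and none higher, where 8.13% of all genes were lower and 9.73% higher. The median of all genes in this pair was -0.01. None of the 9 was as low as SLFN11, but SLFN11 was picked on this contrast, so nothing is read from that. On the SLFN5 side, the ribosome biogenesis gene NLE1 was at 9.91 FPKM untreated and 5.30 FPKM after knockdown (-0.79), the DNA ligase LIG3 was at -0.15 and ZNF830 at 0.47. The repair gene RAD51D shares a row with RFFL, whose values cannot be divided (-0.69). On the other side, the clathrin adaptor subunit AP2B1 was at 46.2 and 33.6 FPKM (-0.45), TAF15 at -0.86 and RASL10B at 3.498 and 1.02 FPKM (-1.16). MMP28 was under 1 FPKM in both SNU-398 libraries. The second gene beyond 2-fold lower was RDM1 (-1.28), outside the rule for named neighbours and named after its value was seen. RDM1 was at 2.99 FPKM untreated and 0.645 FPKM after knockdown, so it passed the filter only through the untreated library.

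With SALL4A, the 9 neighbours that passed had log2 ratios from -0.90 to 0.52 with a median of 0.27, against 0.01 for all genes. None of the 9 was beyond 2-fold, where 5.51% of all genes were. SLFN5 at -0.80 lay lower than all of these neighbours but RDM1. With SALL4B 1 of 9 neighbours was at least 2-fold higher and none lower, where 3.13% of all genes were higher. It was TAF15, an RNA-binding protein, at 60.0 FPKM against 22.5 FPKM with empty vector (1.37).

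**Figure D3:**
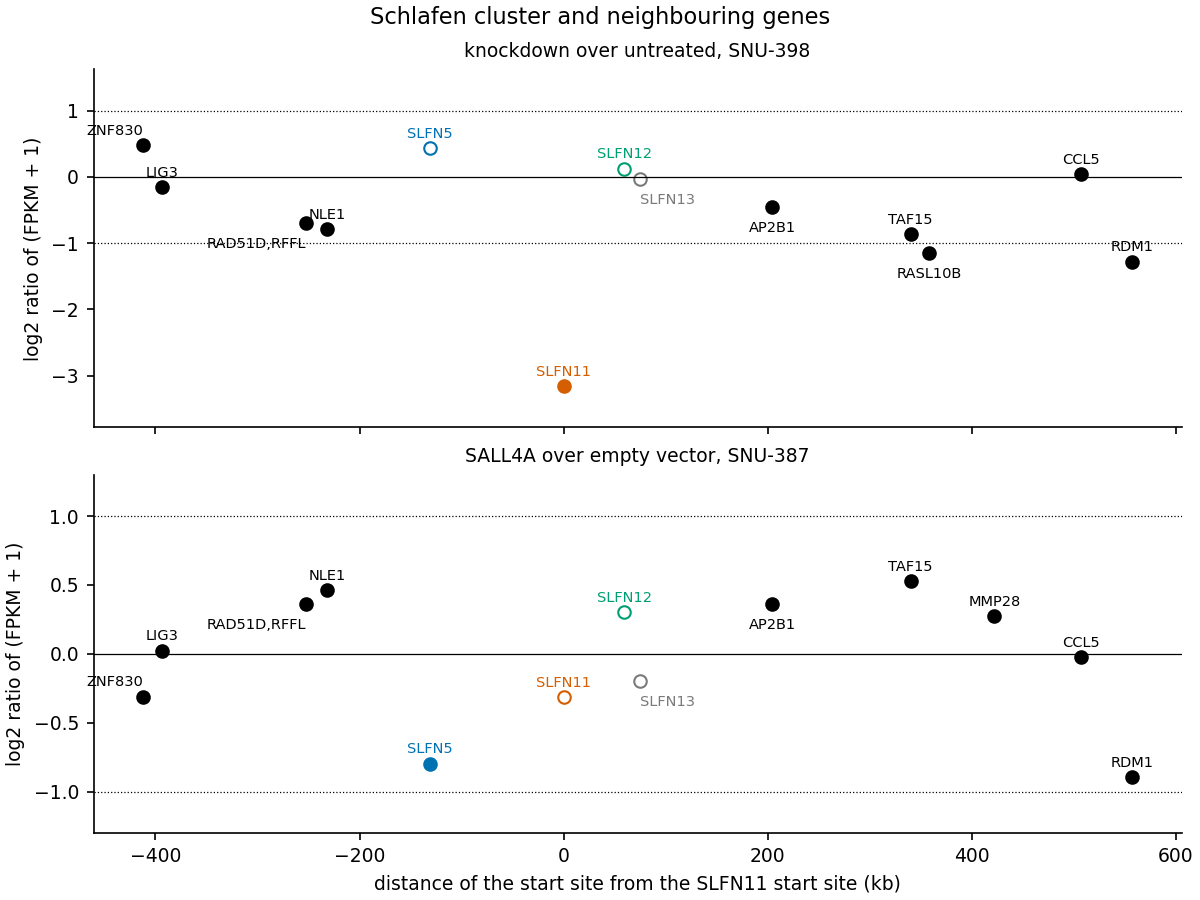
Log2 ratio of (FPKM + 1) of the 4 members (coloured) and of neighbouring genes at 1 FPKM or more (black) against the distance of each start site from that of SLFN11 in kb, for knockdown over untreated (top) and SALL4A over empty vector (bottom); open circles mark members under 1 FPKM in both libraries and dotted lines mark 2-fold. SLFN11, which was picked on the knockdown contrast, lies at -3.16 there, and the neighbours drawn range from -1.28 to 0.47.

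Interferon genes were examined next, since interferon induces several Schlafen genes. Of 35 interferon-stimulated genes, 33 passed the filter in the SALL4A pair, with 10 at least 2-fold lower, none higher and a median log2 ratio of -0.72, against 3.24% of all genes lower and a median of 0.01. With SALL4B 8 of 33 were at least 2-fold lower and none higher, with a median of -0.65, against 4.86% and 0.03. Both use the same empty vector library. Of the genes counted as lower with SALL4B, IFI44L, IFITM1, IFITM2 and OASL were there at 0.953, 0.185, 0.362 and 0.271 FPKM. Their empty vector level alone thus brought them into the count. The same held for TRIM22, counted as lower with SALL4A, where it was at 0.780 FPKM against 6.43 FPKM in empty vector cells. These 5 genes were named after their values were seen. Markers of other cell types moved in these libraries as well. Of 7 fibroblast and stellate markers, 3 were at least 2-fold lower and 2 higher with SALL4A, and 3 lower and 1 higher with SALL4B. Of all genes, 2.27% were higher with SALL4A and 3.13% with SALL4B. The collagen gene COL3A1 was at 141 FPKM in empty vector cells, 17.2 FPKM with SALL4A and 8.80 FPKM with SALL4B. COL1A1, named after its value was seen, was at 54.9, 18.6 and 4.92 FPKM in the same order. In that order LUM was at 263, 176 and 488 FPKM, DCN at 30.4, 2.73 and 32.5 FPKM, and ACTA2 at 56.9, 168 and 65.4 FPKM. Of 4 endothelial markers that passed with SALL4A 2 were higher, CDH5 (0.333 and 5.06 FPKM) and KDR (0.238 and 3.46 FPKM). Both were below 1 FPKM in empty vector cells, so their SALL4A level alone brought them into the count. The same held for TEK (0.398 and 1.05 FPKM), while PECAM1, above 1 FPKM on both sides, had a log2 ratio of -0.02. KDR and TEK were named after their values were seen. The part of these markers in the interferon values was not tested. SLFN5 at -0.80 was near the interferon median with SALL4A, whereas with SALL4B it was at -0.03 while the interferon median was -0.65. Among named genes, the membrane protein gene IFITM3 went from 76.3 FPKM with empty vector to 62.3 FPKM with SALL4A and 45.8 FPKM with SALL4B. The RNA sensor gene IFIH1 went from 13.6 to 5.50 and 7.39 FPKM, and DDX58, the gene of the RNA sensor RIG-I, from 12.2 to 7.94 and 5.12 FPKM.

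In SNU-398 cells 14 of the 35 interferon-stimulated genes passed, 4 at least 2-fold higher after knockdown and 1 lower, with a median of 0.48. Of all genes in this pair 9.73% were at least 2-fold higher, and the median of all was -0.01. DDX58 was at 4.29 FPKM untreated and 13.3 FPKM after knockdown (1.44), and IFITM3 was at 0.2496 and 2.24 FPKM (1.38). IFITM3, counted as higher, and IFIT3 (0.452 and 1.34 FPKM), part of the median, passed the filter only through the knockdown library. Low genes ran high in that library, with a median of 298% of untreated over genes with a mean of 0.05 to 1 FPKM. The other genes beyond 2-fold were IFI6 (1.31), PARP14 (1.35) and OAS3 (-1.09), named after their values were seen. With a common sum, which moves the median of all genes by -0.61, the interferon median was -0.19 and the balance turned, with 1 of 16 higher and 3 lower. At that scaling 531 of 13716 genes were higher and 3998 lower. SLFN11 was at -3.16 and the lowest member of the list at -1.09. Because SLFN11 was picked on this contrast, nothing is read from that difference.

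Interferon receptors and signal carriers act upstream of these genes. With SALL4A 1 of 13 that passed was at least 2-fold lower (STAT2, -1.17, named after its value was seen) and the median was -0.27. With SALL4B none was beyond 2-fold and the median was -0.44. Of all genes, 3.24% were at least 2-fold lower with SALL4A, and 7.99% were beyond 2-fold either way with SALL4B. After knockdown 1 of 13 was at least 2-fold higher, where 9.73% of all genes were, and the median was 0.32. With a common sum none was higher, 2 were lower and the median was -0.30. At that scaling 531 of 13716 genes were higher, 3998 were lower and the median of all was -0.62. The gene counted as higher with values as deposited was IRF9, the DNA-binding part of the interferon-activated complex, at 9.81 FPKM untreated and 28.0 FPKM after knockdown (1.43). The kinase gene JAK1 was at 34.1 and 40.9 FPKM (0.26), and the receptor chain gene IFNAR2 at 12.7 and 6.14 FPKM (-0.94).

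Genes that work with SLFN11 in replication were all expressed in both lines. All 13 listed partners and substrates passed the filter in every pair. After knockdown 2 of 13 were at least 2-fold lower and none higher, with a median of -0.18, where 8.13% of all genes were lower. After scaling to a common sum, 5 were lower and the median was -0.83, where 3998 of 13716 genes were lower and the median of all was -0.62. The 2 genes lower with values as deposited are catalytic subunits of protein phosphatase 1, which dephosphorylates SLFN11. PPP1CA was at 91.3 FPKM untreated and 42.8 FPKM after knockdown (-1.08), and PPP1CC was at 94.4 and 39.2 FPKM (-1.25). The kinase subunit gene CSNK2A1 was at 81.7 and 89.3 FPKM (0.13). No listed partner was beyond 2-fold with SALL4A or SALL4B, with medians of 0.13 and 0.11. With a common sum without small RNAs, however, 2 were higher with SALL4A, where 340 of 12341 genes were. Of all genes, 5.51% and 7.99% were beyond 2-fold with SALL4A and SALL4B with values as deposited.

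The replication stress checkpoint, which SLFN11 acts beside, was also expressed throughout. Of 19 genes that passed after knockdown, 1 was at least 2-fold higher and 1 lower, with a median of -0.09, where 17.9% of all genes were beyond 2-fold either way. Scaled to a common sum, none was higher, 5 were lower and the median was -0.72. At that scaling 531 of 13716 genes were higher, 3998 were lower and the median of all was -0.62. The mitotic brake kinase WEE1 was at 13.0 FPKM untreated and 27.3 FPKM after knockdown (1.01), and the fork remodeller SMARCAL1 was at 14.0 and 4.06 FPKM (-1.57). TOPBP1, an activator of the checkpoint kinase ATR, was at 41.0 and 34.2 FPKM (-0.25), and the fork remodeller HLTF at 31.1 and 45.8 FPKM (0.54). With SALL4A and SALL4B none of the 19 was beyond 2-fold, where 5.51% and 7.99% of all genes were. The medians were 0.23 and 0.09. One scaling, a common sum without small RNAs, gave 1 higher with SALL4A, where 340 of 12341 genes were.

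The targets of the drugs to which SLFN11 sensitises cells, and the repair genes around them, did not pass 2-fold after knockdown or with SALL4A or SALL4B with values as deposited. Of all genes, 17.9%, 5.51% and 7.99% were beyond 2-fold either way in these pairs, in the same order. With a common sum 10 of 26 were at least 2-fold lower after knockdown and the median was -0.73. At that scaling 3998 of 13716 genes were lower and the median of all was -0.62. With a common sum without small RNAs 1 was higher with SALL4A, where 340 of 12341 genes were. All 26 passed the filter in every pair, and their medians as deposited were -0.09 after knockdown, 0.23 with SALL4A and 0.17 with SALL4B. TOP2A, a topoisomerase targeted by etoposide, was at 104 FPKM in both SNU-398 libraries. PARP1, the target of PARP inhibitors, was at 94.4 FPKM untreated and 51.7 FPKM after knockdown (-0.86). The nuclease subunit gene ERCC4 was at 8.41 and 3.86 FPKM (-0.95), and XRCC1, a scaffold of single-strand break repair, was at 35.5 and 18.6 FPKM (-0.90).

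Factors that act on the SLFN11 promoter or its chromatin were described last. After knockdown none of the 13 that passed was beyond 2-fold, where 17.9% of all genes were. Their median was -0.42, against -0.01 for all genes. On a common sum, 6 of the 13 were at least 2-fold lower and the median was -0.95. At that scaling 3998 of 13716 genes were lower and the median of all was -0.62. The histone deacetylase gene HDAC3 was at 35.3 FPKM untreated and 18.3 FPKM after knockdown (-0.91), HDAC1 was at 76.7 and 50.2 FPKM (-0.60), the DNA methyltransferase gene DNMT1 at 89.2 and 75.01 FPKM (-0.25), and the histone demethylase gene KDM5B at 28.9 and 48.7 FPKM (0.74). FLI1, an ETS factor known to drive SLFN11 in Ewing sarcoma, was listed at 0 in untreated SNU-398 cells and at 0.0789 FPKM after knockdown. In SNU-387 FLI1 was at 2.97 FPKM in empty vector cells, at 6.78 FPKM with SALL4A and at 0.480 FPKM with SALL4B. Its log2 ratio for SALL4B over empty vector was -1.42, and it passed the filter there only through empty vector. FLI1 was the 1 of 14 listed factors beyond 2-fold with SALL4B, where 7.99% of all genes were, and the list median was -0.03. As deposited, none of the 14 was beyond 2-fold with SALL4A, where 5.51% of all genes were, and the median was 0.21. ETS1, the other ETS factor listed, was at 31.4 FPKM in empty vector cells, and at 2.85 and 1.88 FPKM in untreated and knockdown SNU-398 cells. FLI1 and ETS1 were named after their values were seen. Their part in the SLFN11 levels was not tested.

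The PDE3A partner of SLFN12 was under 1 FPKM in every library, with 0.438, 0.427 and 0.360 FPKM in empty vector, SALL4A and SALL4B cells and 0.102 and 0.283 FPKM before and after knockdown. PDE3B was at 12.9 and 9.96 FPKM before and after knockdown in SNU-398, and at 0.901 to 2.55 FPKM in SNU-387.

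**Figure D4:**
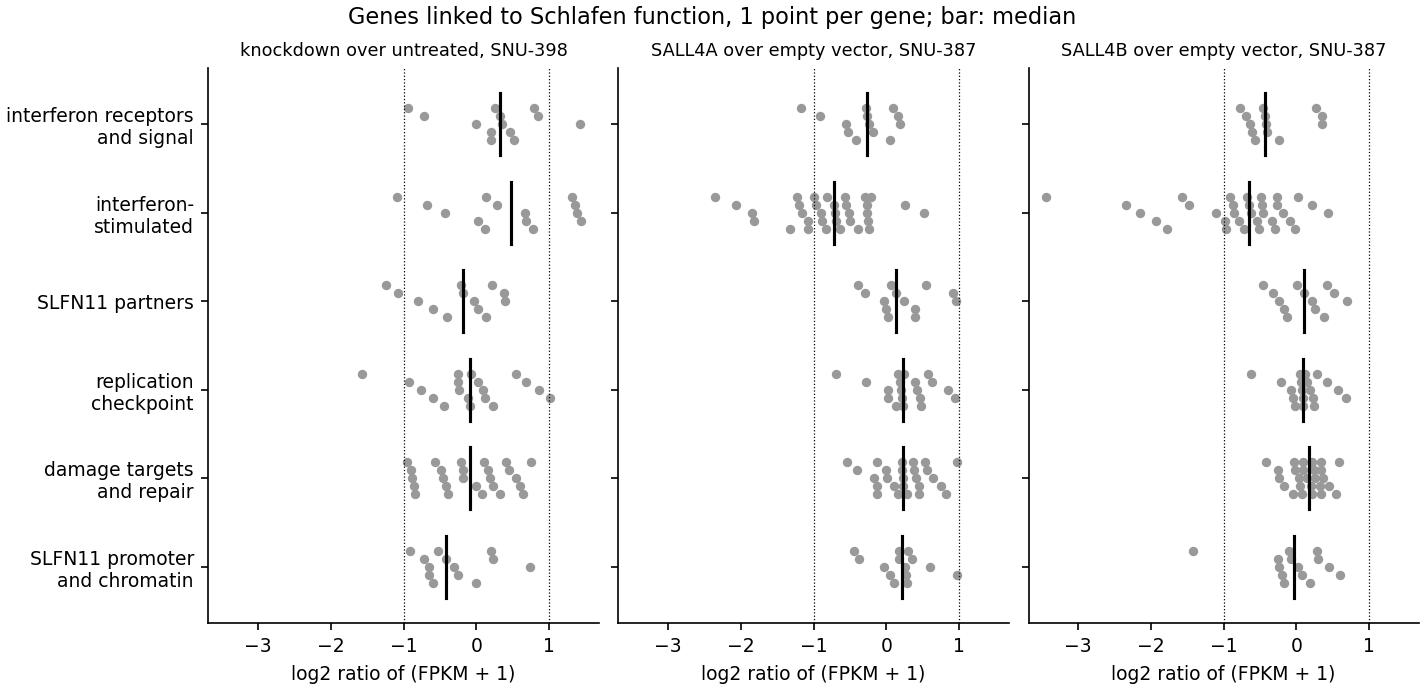
Log2 ratio of (FPKM + 1) of listed genes that reached 1 FPKM in the pair (grey points, 1 per gene) for 6 gene lists in 3 pairs, with the median of each list as a black bar and dotted lines at 2-fold. Interferon-stimulated genes have medians of -0.72 with SALL4A, -0.65 with SALL4B and 0.48 after knockdown, while the repair list, drawn with values as deposited, lies within 2-fold in the 3 pairs. With a common sum 10 of its 26 genes are at least 2-fold lower after knockdown, where 3998 of 13716 genes are.

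Likeness to the SLFN11 profile was the root mean square difference between log2(FPKM + 1) values over the 5 libraries, each less its mean, over 11765 other genes at 5 FPKM or more in at least 1 library. The 5 closest were ZNF853 (0.321), BATF3 (0.324), FGD5 (0.339), C12orf71 (0.352) and GABRA5 (0.368), on chromosomes 7, 1, 3, 12 and 15. BATF3, an AP-1 family transcription factor, was at 20.4 FPKM untreated and 1.86 FPKM after knockdown, and between 0.648 and 1.03 FPKM in SNU-387. ZNF853 was at 9.44 and 1.13 FPKM in SNU-398 and at most 0.0227 FPKM in SNU-387. FGD5, a guanine exchange factor gene, was at 13.9 and 2.21 FPKM, C12orf71 at 14.1 and 2.36 FPKM, and GABRA5, a GABA receptor subunit gene, at 10.3 and 1.78 FPKM. These genes were selected for this pattern, so their values are a description.

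**Figure D5:**
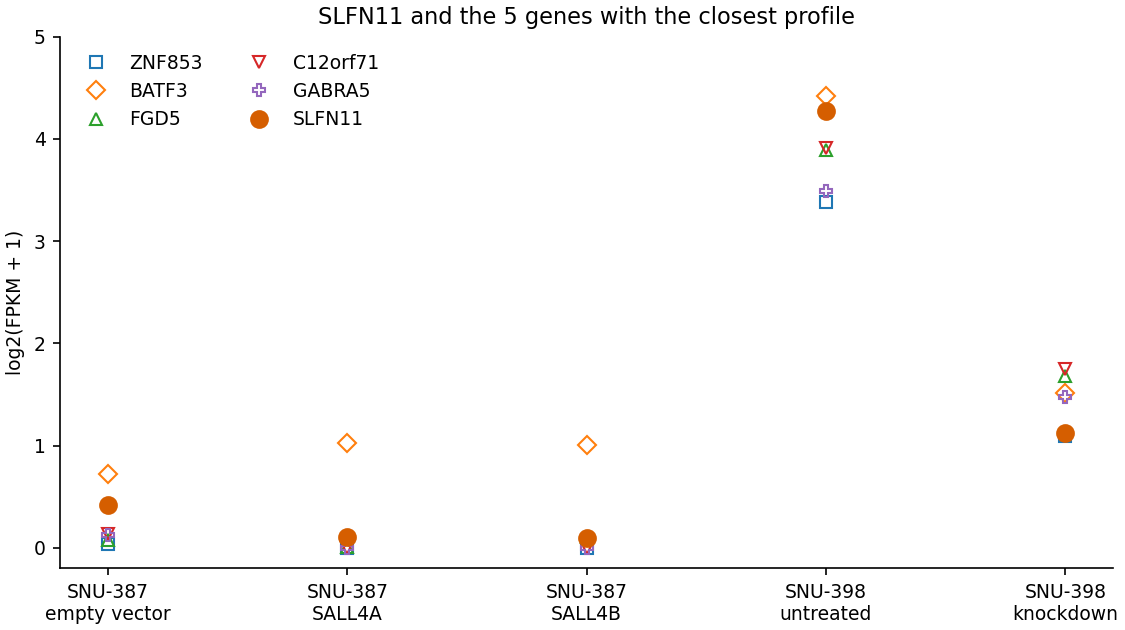
Log2(FPKM + 1) of SLFN11 (filled circles) and of the 5 genes with the closest profile (open symbols) in the 5 libraries, 1 point per gene and library. All 6 genes are high in untreated SNU-398 cells and lower in the other 4 libraries, with SLFN11 at 18.4 and BATF3 at 20.4 FPKM in untreated cells.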

How the data were processed

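The authors deposited 1 table of FPKM values for each library. TopHat2, Cufflinks, Cuffdiff and SAMtools, with no version, and the builds hg38 and GRCh38 appear in the submitters' processing notes. Per the labels' protocols, RNA came from RNeasy columns and libraries from a ScriptSeq Complete Gold kit. No label states the annotation, the use of strand or any joint normalisation. Of 26032 rows per table, 17 named with a dash were dropped, and rows of 450 repeated symbols were summed.

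Ratios were log2((FPKM + 1)/(FPKM + 1)) among genes that reached 1 FPKM in one library of a pair, counted at 2-fold; this scale understates changes of low genes. Shares in percent used FPKM without a pseudocount. Depth was estimated on the steps between low FPKM values of 1-transcript genes (GENCODE 29, length less 150 bases); 77.5% to 81.2% of values lay within 0.15 of a whole fragment. A member's fragments used its longest transcript. Intervals (95%) cover counting error only. The members and gene lists were chosen with earlier results of these data known. Named genes were all members, the up to 5 nearest expressed neighbours per side, and of each list the 2 largest knockdown ratios and the 2 highest levels; a few items that this rule takes in, 1 neighbour among them, are not reported here. The range of 0.05 to 1 FPKM, the motifs and the 50-base words were chosen after the data were seen. Alternatives were other pseudocounts (0.1 and 0.5 FPKM), filters, scalings and the highest row of a symbol. Scripts were tested on simulated data. The work used matplotlib 3.10.9, scipy 1.17.1, pandas 2.3.3 and numpy 2.4.6 under Python 3.11.15.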

Additional observations from a re-analysis of the deposited data

How the results depend on the processing

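The members counted at 2-fold stayed at 1 for knockdown and 0 for the 3 SNU-387 pairs under all 8 alternatives. Some alternatives could not change these counts. With a pseudocount of 1 FPKM, a gene under 1 FPKM in both libraries cannot reach 2-fold, so dropping the filter adds none. SLFN11 at 18.4 FPKM stays above a filter of 5 FPKM, and taking the highest row left the members' ratios unchanged. With a pseudocount of 0.1 FPKM the kept filter of 1 FPKM left out the members under it. No member's ratio reversed. The SLFN11 ratio after knockdown was -3.86 with a pseudocount of 0.1 FPKM and -3.69 with a common sum. With a common sum without small RNAs, the SLFN5 ratio was -0.70 for SALL4A over empty vector and -0.59 for SALL4A over SALL4B. Each of these lay outside the counting interval once its width was placed around the main log2 ratio. Shares in percent use no pseudocount, so the move at 0.1 FPKM reflects the pseudocount and not a departure from counting error. Among members under 1 FPKM, a pseudocount of 0.1 FPKM took the SLFN5 knockdown ratio to 1.17, outside the interval placed in this way. The SLFN5 share of 275% (interval 187% to 400%) uses no pseudocount and did not move. The same pseudocount took SLFN11 to -1.33 with SALL4A and -1.41 with SALL4B, and SLFN13 to -1.24 and -1.20. All 4 were past 2-fold but within their wide counting intervals, placed in the same way.

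Counts over all genes moved more. After knockdown a common sum gave 531 higher and 3998 lower genes against 1335 and 1115, or 11.7% higher against 54.5%. With a pseudocount of 0.1 FPKM, 516 and 648 genes were counted for SALL4A against 282 and 403, 681 were higher for SALL4B against 390, and 739 and 711 were counted between the isoforms against 474 and 421. Between the isoforms higher genes were 64.4% with a common sum and 73.0% with a common sum without small RNAs, which left 235 lower genes, against 53.0%. No paired analysis was possible because each group held 1 library. For the same reason leaving out a library gives no value. The SLFN13 shares for both isoforms and the SLFN12 share after knockdown rest on few fragments, as does SLFN13 between the isoforms, which limits their precision.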

Other observations

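The other Schlafen genes with a row were SLFN12L, SLFN14 and SLFNL1. SLFN14, a ribosome-associated endonuclease gene of platelet precursors, ranged from listed at 0 with SALL4B to 0.142 FPKM after knockdown, and SLFN12L from listed at 0 with SALL4B and in untreated cells to 0.160 FPKM after knockdown, about 3.67 fragments. SLFNL1, a distant relative on chromosome 1 (41015597 to 41023237, GRCh38), was the one other family gene that passed the filter, in the knockdown pair. It was at 1.48 FPKM untreated and 3.43 FPKM after knockdown, 232% of the untreated level (interval 180% to 301%, counting error only) and a log2 ratio of 0.84, or 0.38 with a common sum. SLFNL1-AS1, its antisense partner, was at 1.38 and 3.29 FPKM in the same libraries. No label says whether strand was used in counting, so reads of the 2 genes cannot be told apart.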
